A study of Mus musculus with 6 samples.

Results

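The late neutrophil granule and S100 genes are 10 genes that maturing neutrophils transcribe strongly, namely Ltf, Camp, Ngp, Lcn2, S100a8, S100a9, Chil3, Cd177, Retnlg and Ifitm6. Each was taken from the probe sets that carry exactly 1 gene symbol, and each had 1 such probe set and none shared with another gene, so that 10 of the 19938 genes on the array are described. Expression was measured in whole bone marrow of 6 mice at disease onset, with 1 Affymetrix mouse gene array for each animal. The HoxA9AA/Meis1 group held 3 mice that had received donor LSK cells, the stem and progenitor fraction of marrow, transduced with Meis1 and with HoxA9AA-GFP, an altered form of the homeobox gene HoxA9. The HoxA9wt/Meis1 group held 3 mice that had received LSK cells transduced with Meis1 and with the wild-type form, HoxA9wt-GFP. In both groups the donor cells were CD45.2+ and the lethally irradiated recipients CD45.1+, and the marrow was not described as sorted, so that remaining recipient cells are measured with the donor cells. Fewer neutrophil precursors in a marrow and less RNA of these genes per cell cannot be told apart in such samples.

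Neutrophils fill their granules in sequence while they mature in the marrow. Primary granules with myeloperoxidase and elastase are made by promyelocytes, secondary granules with lactoferrin, cathelicidin and lipocalin 2 by myelocytes and metamyelocytes, and later granules and surface proteins by the cells that follow. The factor C/EBPε, encoded by Cebpe, is needed for secondary granule proteins in the mouse. Meis1 with HoxA9 is a known pair of leukaemia genes that holds myeloid progenitors back from maturing.

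The promoters of 6 of the genes are shown because they cover the largest group difference, the widest spread between mice and the separate pattern of Chil3, all described below. They are the 250 bases before the annotated start in RefSeq, build GRCm38.p6, written 5′ to 3′ along the gene. Capitals mark matches to TTGCNNAA, or TTNNGCAA on the other strand, letters that C/EBP proteins are known to bind. Ngp lies at chr9:110419558-110419807, plus strand, Ltf at chr9:111019042-111019291, plus strand, S100a9 at chr3:90695722-90695971, minus strand, Retnlg at chr16:48872358-48872607, plus strand, S100a8 at chr3:90668821-90669070, plus strand, and Chil3 at chr3:106167565-106167814, minus strand.
Ngp: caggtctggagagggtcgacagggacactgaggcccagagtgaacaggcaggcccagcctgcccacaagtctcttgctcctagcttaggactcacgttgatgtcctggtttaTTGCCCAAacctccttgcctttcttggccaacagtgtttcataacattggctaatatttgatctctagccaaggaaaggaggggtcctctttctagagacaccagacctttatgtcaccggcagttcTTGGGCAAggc
Ltf: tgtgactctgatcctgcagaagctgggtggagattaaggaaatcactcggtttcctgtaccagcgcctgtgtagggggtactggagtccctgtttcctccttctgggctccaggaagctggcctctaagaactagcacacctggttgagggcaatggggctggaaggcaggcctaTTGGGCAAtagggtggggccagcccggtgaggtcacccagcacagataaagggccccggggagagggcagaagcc
S100a9: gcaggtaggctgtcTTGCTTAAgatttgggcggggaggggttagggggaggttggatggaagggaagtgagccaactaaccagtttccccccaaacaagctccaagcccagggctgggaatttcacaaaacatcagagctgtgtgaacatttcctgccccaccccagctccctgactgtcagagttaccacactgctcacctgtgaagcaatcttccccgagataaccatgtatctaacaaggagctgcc
Retnlg: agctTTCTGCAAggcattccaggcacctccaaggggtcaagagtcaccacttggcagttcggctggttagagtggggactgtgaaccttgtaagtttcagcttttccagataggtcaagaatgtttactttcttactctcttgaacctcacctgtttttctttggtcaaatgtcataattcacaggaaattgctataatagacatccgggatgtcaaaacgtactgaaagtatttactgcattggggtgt
S100a8: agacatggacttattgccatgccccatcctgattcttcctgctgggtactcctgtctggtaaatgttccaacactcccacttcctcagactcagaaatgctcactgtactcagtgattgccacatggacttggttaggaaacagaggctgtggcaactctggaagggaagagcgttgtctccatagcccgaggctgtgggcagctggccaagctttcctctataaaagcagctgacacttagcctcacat
Chil3: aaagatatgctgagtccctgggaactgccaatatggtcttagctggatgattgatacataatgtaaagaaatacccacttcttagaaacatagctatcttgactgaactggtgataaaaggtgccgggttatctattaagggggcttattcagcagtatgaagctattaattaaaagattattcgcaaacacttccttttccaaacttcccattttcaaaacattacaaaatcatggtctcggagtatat

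Of the 10 promoters, 5 held such a match, those of Ltf, Ngp, Lcn2, S100a9 and Retnlg, beside 9.56% of all 32851 RefSeq promoter windows of this length. Ngp held a pair of them, whose first bases lie 138 and 11 bases before the start. The match of Ltf begins 75 bases, that of Lcn2 216 bases, that of S100a9 236 bases and that of Retnlg 246 bases before the start. The promoters of Camp, S100a8, Chil3, Cd177 and Ifitm6 did not hold these letters in the window. TGACAG, which Meis proteins bind, stood in 1 of the 10 promoters, that of S100a9, and in 15.9% of all windows. TGATTNAT, a site of Hox proteins with Pbx, stood in 1, that of Chil3, and in 2.82% of all windows. Looser C/EBP letters, TTNNGNAA and TTNNNCAA, stood in 9 and 8 of the 10, and in 36.8% and 33.3% of all windows. Other letters exceeded their share too, such as GGAAAT in 5 of the 10 against 15.4%. Those of AP-1 and Runx stood in 0 of the 10, against 6.75% and 10.8%. The motifs named were picked from 17 searched, on both strands, after their counts had been seen, and a match describes letters and not binding.

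Over all 19938 genes HoxA9AA/Meis1 replicate 2 resembled the HoxA9wt/Meis1 arrays (r = 0.989 to 0.991) more than HoxA9AA/Meis1 replicates 1 and 3 did (0.958 to 0.970). HoxA9wt/Meis1 replicate 3, which is the lowest mouse for 6 of the 10 genes below, correlated with its group at 0.988 and 0.990. Lists of markers of other marrow cells had 0 genes that passed (limma). Of the stem and progenitor list, 11 of 13 had a higher mean in HoxA9AA/Meis1 marrow, where 52.7% of all genes did, and 3 a higher one at an unadjusted p under 0.05, where 4.15% of all genes did. Those were Erg, Kit and Myb, which differed by 0.94, 1.44 and 0.49, with Myc next at 0.47. Averaged over this list, HoxA9AA/Meis1 replicates 1, 2 and 3 stood at 0.38, 0.02 and 0.79 from the HoxA9wt/Meis1 mean. The HoxA9wt/Meis1 replicates stood at 0.15, −0.25 and 0.10, so that HoxA9AA/Meis1 replicate 2 lay among them. Erg, a transcription factor of stem cells, measured 9.60, 8.74 and 9.43 in HoxA9AA/Meis1 and 8.42, 8.23 and 8.31 in HoxA9wt/Meis1 mice, which did not overlap. Of the B cell list, 11 of 12 had a higher mean. Its gene with the smallest p, Vpreb3, measured 7.60, 7.16 and 7.20 in HoxA9AA/Meis1 and 6.67, 6.78 and 6.74 in HoxA9wt/Meis1 mice. Cd79a lay under 6 in all mice, and Cd79b between 7.46 and 9.37. A mark of background is the level below which 95% of 1027 olfactory receptor genes lie (6.52 to 6.72 over the arrays). Cd79a, Cd22, Ms4a1, Blnk, Ebf1, Rag1 and Rag2 lay under this olfactory level on all arrays. Much of the B cell count thus rested on values at background. Mecom and Procr, counted as higher in the stem and progenitor list, also lay under this level on all arrays. The erythroid list had a lower mean for all 11 measured genes. Car1 stood at 6.04 to 6.64 in HoxA9AA/Meis1 mice and at 6.68, 10.27 and 7.53 in HoxA9wt/Meis1 replicates 1, 2 and 3. Averaged over the list, these replicates stood at −0.46, 0.67 and −0.21 from the HoxA9wt/Meis1 mean. The HoxA9AA/Meis1 mice stood at −0.59 to −0.40. The lower means thus rested largely on HoxA9wt/Meis1 replicate 2. Epb42, Klf1 and Gata1 lay under the olfactory level on all arrays. Of the T and NK list, 6 of 11 had a higher mean, and of the eosinophil, basophil and mast cell list 8 of 13. The part of these cells in the values below was not tested.

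The comparison set marrow with the altered HoxA9 against marrow with the unaltered form. Retnlg, Ngp, S100a9 and S100a8 had higher means in HoxA9AA/Meis1 marrow, by 1.1 to 1.85 on the log2 scale, and Ifitm6 and Chil3 lower means, at −1.38 and −1.30. None of these differences passed the test, and mice of 1 group lay up to 4.49 apart (S100a9, HoxA9wt/Meis1). With limma, 0 of the 10 had an adjusted p under 0.05 (Benjamini-Hochberg over 19938 genes), where the background was 0 of 19938 genes, or 0%, and the smallest adjusted p of any gene was 0.731. At an unadjusted p under 0.05 there were 0 of the 10 genes and 1344 of all genes, with 4.15% of all genes higher and 2.59% lower in HoxA9AA/Meis1 marrow. The 3 values of one group lay wholly above those of the other for 0 of the 10, against 11.4% of all genes. Of the 10, 6 had a higher mean in HoxA9AA/Meis1 marrow and 4 a lower one, while 52.7% of all genes had a higher mean. The median difference, HoxA9AA/Meis1 minus HoxA9wt/Meis1 on the log2 scale, was 0.57 for the 10 genes and 0.01 for all genes. Both summaries rested on HoxA9wt/Meis1 replicate 3: without it, 3 of the 10 had a higher mean and the median difference was −0.12.

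Single mice lay far from each other. All 10 spanned at least 1 on the log2 scale over the 6 arrays, from 1.29 for Cd177 to 4.80 for Retnlg, whereas 12.1% of all genes did and the median gene spanned 0.43. Related lists were wide too. Of other late granule and membrane genes 21 of 30 spanned at least 1, and of mature neutrophil surface and secretory genes 11 of 17. So did 9 of 14 primary granule genes and 12 of 15 monocyte markers. Their median spans were 1.53, 1.42, 1.36 and 1.73, against 3.77 for the 10 genes. The lowest array was HoxA9AA/Meis1 replicate 3 for 4 of the genes (Lcn2, Chil3, Cd177 and Ifitm6). It was HoxA9wt/Meis1 replicate 3 for the other 6. Among all genes these arrays were lowest for 20.1% and 10.4%. The labels give mice with the same number no shared origin.

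**Figure D1:**
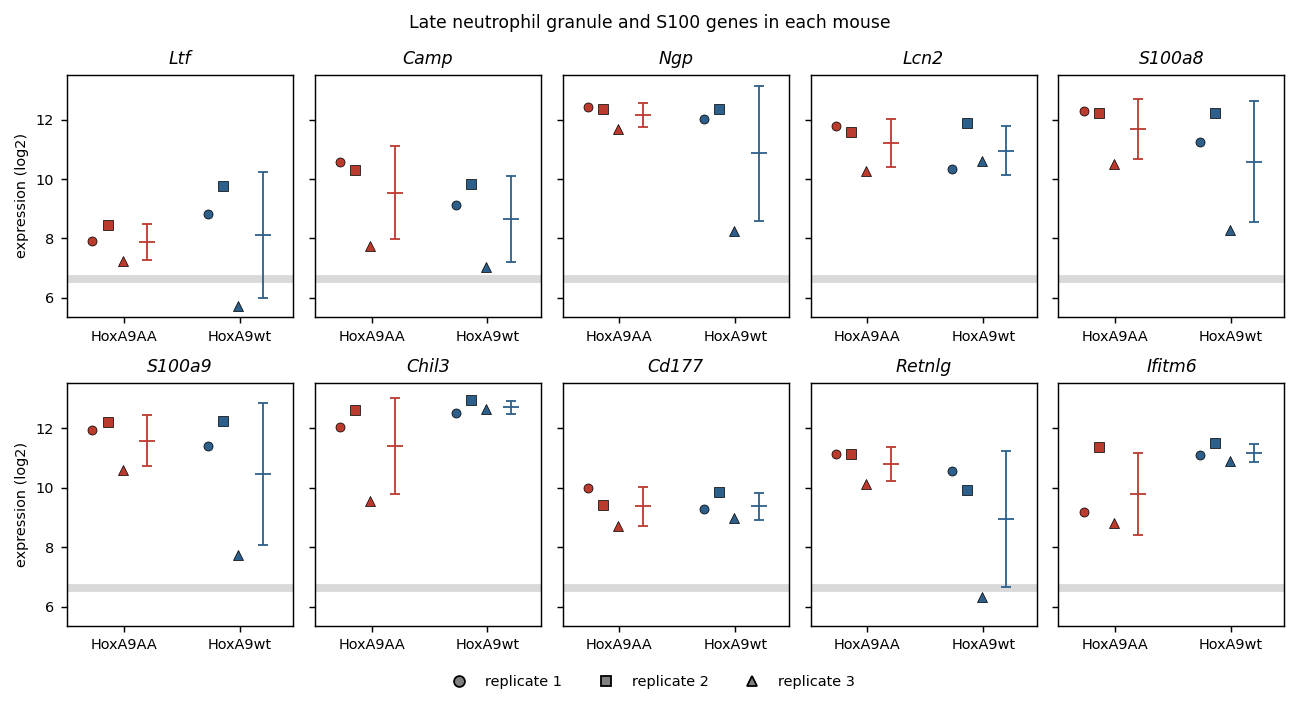
Expression values (log2, vertical axis) of the 10 genes in each of 3 HoxA9AA/Meis1 and 3 HoxA9wt/Meis1 mice; each symbol is 1 mouse, crossbars give the mean ± SD of a group (n = 3), and the grey band is the range over arrays of the value below which 95% of 1027 olfactory receptor genes lie (6.52 to 6.72). The groups overlap in every panel, and HoxA9wt/Meis1 replicate 3 is the lowest mouse for Ltf, Camp, Ngp, S100a8, S100a9 and Retnlg.

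Among the secondary granule proteins, Ltf encodes lactoferrin, which binds iron and withholds it from microbes. It measured 7.93, 8.45 and 7.23 in HoxA9AA/Meis1 replicates 1, 2 and 3, against 8.82, 9.77 and 5.73 in HoxA9wt/Meis1 replicates 1, 2 and 3 (log2 values, as in all that follows). The HoxA9AA/Meis1 mice lay inside the span of the HoxA9wt/Meis1 mice. The value of 5.73 lay under 6.63, the level below which 95% of 1027 olfactory receptor genes lay on that array, a mark of background. The mean was 7.87 ± 0.61 in HoxA9AA/Meis1 and 8.11 ± 2.11 in HoxA9wt/Meis1 (SD, n = 3 each), a difference of −0.24 ± 0.999 (SE; limma, adjusted p = 0.988). Its sign turned to 0.37 with array weights.

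Camp encodes the mouse cathelicidin, the precursor of an antimicrobial peptide. It measured 10.58, 10.31 and 7.74 in HoxA9AA/Meis1 mice and 9.13, 9.82 and 7.04 in HoxA9wt/Meis1 mice. The third mouse of each group was low, and the other 4 lay between 9.13 and 10.58. The difference was 0.88 ± 0.97 (limma, adjusted p = 0.908), with a 95% interval of −1.45 to 3.21. Ngp encodes neutrophilic granule protein, a relative of the cathelicidins and cystatins. It measured 12.42, 12.37 and 11.69 in HoxA9AA/Meis1 marrow, against 12.02, 12.34 and 8.25 in HoxA9wt/Meis1 marrow. A single mouse, HoxA9wt/Meis1 replicate 3, was low, and the other 5 spanned less than 1. The difference of 1.29 ± 1.05 (limma, adjusted p = 0.859) became −0.02 without that mouse.

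Lcn2 encodes lipocalin 2, which captures the iron carriers of bacteria. Its values were 11.77, 11.57 and 10.28 in HoxA9AA/Meis1 marrow and 10.35, 11.89 and 10.61 in HoxA9wt/Meis1 marrow. Each group held mice above 11 and mice below 11, and HoxA9wt/Meis1 replicate 3 was not the lowest here. The difference was 0.26 ± 0.53 (limma, adjusted p = 0.967, 95% interval −1.01 to 1.53). Its sign turned to −0.025 without HoxA9AA/Meis1 replicate 1 and to −0.0433 without HoxA9wt/Meis1 replicate 1.

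S100a8 and S100a9 encode the calcium-binding chains of calprotectin, an abundant cytosolic complex of neutrophils and monocytes that binds zinc and manganese. They lie next to each other on chromosome 3, with 0 coding genes between them in RefSeq. S100a8 measured 12.30, 12.22 and 10.52 in HoxA9AA/Meis1 replicates 1, 2 and 3, against 11.23, 12.21 and 8.30 in the HoxA9wt/Meis1 replicates. S100a9 measured 11.93, 12.21 and 10.60 in HoxA9AA/Meis1 marrow, against 11.39, 12.23 and 7.74 in HoxA9wt/Meis1 marrow. Both genes were lowest in HoxA9wt/Meis1 replicate 3 and next lowest in HoxA9AA/Meis1 replicate 3. The differences were 1.1 ± 1.03 for S100a8 and 1.13 ± 1.15 for S100a9 (limma, adjusted p = 0.888 and 0.901). They became −0.04 and −0.23 without HoxA9wt/Meis1 replicate 3. Over the 6 arrays the pair correlated at r = 0.990, and at 0.972 over the 5 arrays without that mouse.

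Of 15 other S100 genes measured, 6 lay under the olfactory mark on all arrays, where little span can be seen, and S100a2 did so on some. Of the 8 above it on all arrays, 4 spanned at least 1, namely S100a4, S100a10, S100a6 and S100a1. S100a4, a binding partner of the cytoskeleton in motile cells, had the smallest p. It measured 7.69, 10.41 and 9.43 in HoxA9AA/Meis1 marrow and 11.69, 10.69 and 10.83 in HoxA9wt/Meis1 marrow, a difference of −1.89 ± 0.67 that did not pass (limma, adjusted p = 0.731). HoxA9wt/Meis1 replicate 3, the lowest mouse for S100a8, lay among its group for S100a4, and the groups of S100a4 did not overlap.

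Among the surface and secreted proteins, Retnlg encodes a resistin-like protein of mouse neutrophils. It measured 11.14, 11.12 and 10.13 in HoxA9AA/Meis1 mice and 10.58, 9.93 and 6.34 in HoxA9wt/Meis1 mice. The lowest value lay under the olfactory mark of 6.63 on its array. The mean was 10.80 ± 0.58 in HoxA9AA/Meis1 and 8.95 ± 2.28 in HoxA9wt/Meis1 marrow (SD, n = 3 each). This difference, 1.85 ± 1.07, was the largest of the 10 towards higher values and did not pass (limma, adjusted p = 0.785, 95% interval −0.72 to 4.42). It was 0.54 without HoxA9wt/Meis1 replicate 3. Of the relatives on the array, Retnla stood at 5.27, 7.11 and 7.64 in HoxA9AA/Meis1 and at 5.79 to 5.90 in HoxA9wt/Meis1 mice. Retn and Retnlb differed by −0.03 each.

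Cd177 encodes a surface glycoprotein of neutrophils that binds the adhesion molecule Pecam1. Its values of 9.99, 9.42 and 8.70 in HoxA9AA/Meis1 and 9.28, 9.87 and 8.97 in HoxA9wt/Meis1 mice made it the least variable of the 10. The difference was −0.0033 ± 0.37 (limma, adjusted p = 1), with a 95% interval of −0.88 to 0.88. Pecam1 itself measured 10.88, 9.87 and 10.94 in HoxA9AA/Meis1 and 9.84, 8.96 and 9.32 in HoxA9wt/Meis1 mice, groups that did not overlap (difference 1.19, limma, adjusted p = 0.731).

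Chil3 and Ifitm6 were lowest in HoxA9AA/Meis1 mice. Chil3 encodes the chitinase-like lectin Ym1, which mouse neutrophil precursors, monocytes and some macrophages make. It measured 12.04, 12.62 and 9.56 in HoxA9AA/Meis1 marrow, against 12.50, 12.95 and 12.66 in HoxA9wt/Meis1 marrow. Only HoxA9AA/Meis1 replicate 3 lay far from the other 5 mice. The difference was −1.30 ± 0.75 (limma, adjusted p = 0.783), and −0.37 without that mouse. Its near copy Chil4, which probes for Chil3 may not fully separate, measured 6.25, 6.42 and 5.69 in HoxA9AA/Meis1 and 6.57, 7.01 and 6.69 in HoxA9wt/Meis1 mice, around the olfactory mark.

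Ifitm6 encodes a member of the interferon-induced transmembrane family that mouse myeloid cells express. It measured 9.19, 11.37 and 8.80 in HoxA9AA/Meis1 mice and 11.10, 11.50 and 10.89 in HoxA9wt/Meis1 mice. HoxA9AA/Meis1 replicates 1 and 3 lay below all HoxA9wt/Meis1 mice, and replicate 2 among them. The difference was −1.38 ± 0.65, with the smallest unadjusted p of the 10, at 0.0740 (limma, adjusted p = 0.734). Without HoxA9AA/Meis1 replicate 2, the mouse of its group nearest to HoxA9wt/Meis1, it was −2.17 with an adjusted p of 0.0470 (limma), the only time any of the 10 passed under a setting tried. In that setting 48 of all 19938 genes passed, 17 higher and 31 lower. Ifitm3, a broadly expressed relative, measured 11.75, 12.39 and 10.97 in HoxA9AA/Meis1 and 12.61, 12.21 and 12.19 in HoxA9wt/Meis1 mice. The other 5 Ifitm genes differed by −0.33 to 0.02.

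**Figure D2:**
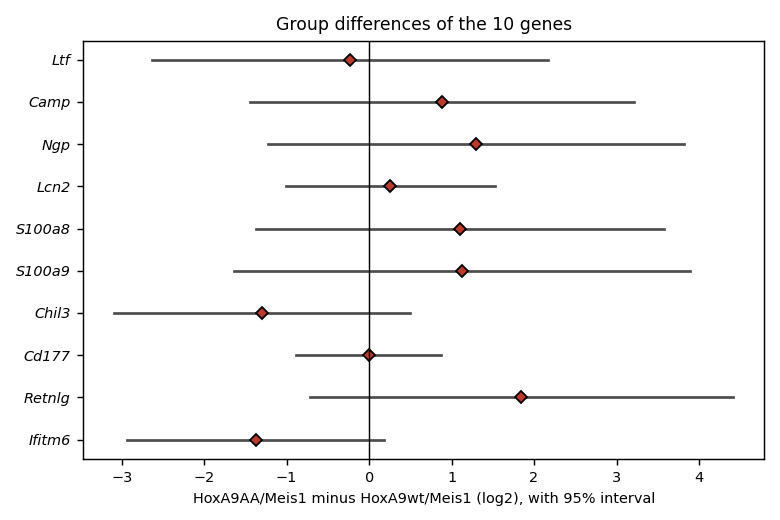
Difference HoxA9AA/Meis1 minus HoxA9wt/Meis1 (log2, horizontal axis) of the 10 genes; diamonds are estimates and lines their 95% intervals from limma (n = 3 mice per group). All 10 intervals include 0, from Retnlg at 1.85 to Ifitm6 at −1.38.

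Seen over the 6 mice, the genes are described in 3 sets, chosen after their values were seen and therefore without a test. Ltf, Camp, Ngp, S100a8, S100a9 and Retnlg correlated with each other at r = 0.71 to 0.99 (15 pairs, 6 arrays each). Averaged over these 6 genes and centred on the mean of all arrays, HoxA9AA/Meis1 replicate 3 stood at −0.45 and HoxA9wt/Meis1 replicate 3 at −2.87, with the other mice at 0.42 to 1.01. Camp, Ngp and S100a8 ranked the 6 mice in the same order. Without HoxA9wt/Meis1 replicate 3 the 15 correlations ranged from −0.28 to 0.997, the lowest being that of Ltf with Retnlg, so that part of the likeness came from that array.

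Chil3 and Ifitm6 correlated with each other at 0.83, also without HoxA9wt/Meis1 replicate 3, and with the first 6 genes at −0.18 to 0.39. Their mean stood at −0.65, 0.73 and −2.08 in HoxA9AA/Meis1 replicates 1, 2 and 3, and at 0.54, 0.96 and 0.51 in the HoxA9wt/Meis1 replicates. Over the 5 arrays without HoxA9wt/Meis1 replicate 3 their correlations with the 6 genes ranged from −0.05 to 0.89, with Chil3 close to S100a9 at 0.89. Much of the separation of Chil3 from the 6 genes thus lay in that 1 mouse. Lcn2 and Cd177 correlated with each other at 0.88 and spanned 1.61 and 1.29, the smallest spans of the 10. They were not separate from the first 6 genes, with which they correlated at 0.37 to 0.86, and at 0.28 to 0.95 without HoxA9wt/Meis1 replicate 3. Camp correlated with Cd177 at 0.86 and with Lcn2 at 0.79, more closely than Ltf did with Retnlg, at 0.71.

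**Figure D3:**
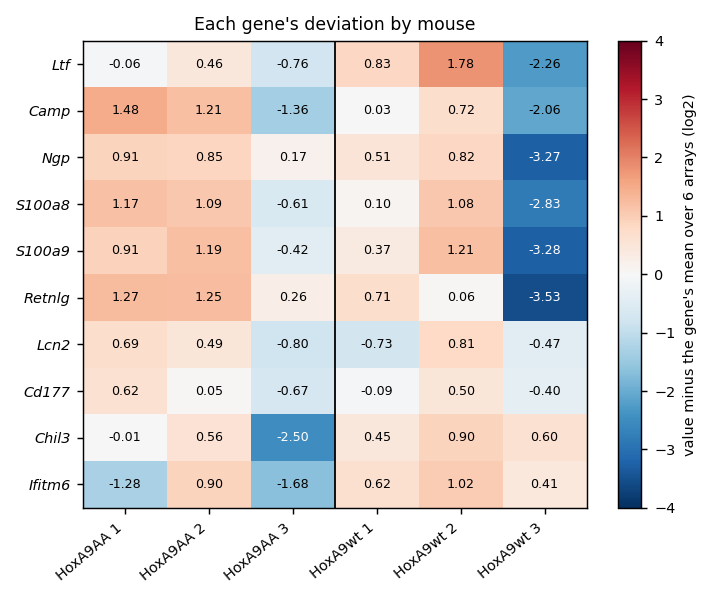
Deviation of each of the 10 genes (rows) in each mouse (columns) from its own mean over the 6 arrays, in log2 units given in the cells and by colour; the black line parts HoxA9AA/Meis1 from HoxA9wt/Meis1 mice. HoxA9wt/Meis1 replicate 3 is low in the first 6 rows, at −2.06 to −3.53, and not for Chil3 (0.60) or Ifitm6 (0.41), which are lowest in HoxA9AA/Meis1 replicate 3.

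The genes most like the mean of the 10, among 2331 other named genes that spanned at least 1, included further neutrophil genes. Slco4c1, an organic anion transporter gene, correlated with it at r = 0.938 over the 6 arrays, Abca13, a transporter of the ABC family, at 0.920, and the chemokine receptor gene Cxcr2 at 0.913. Olfm4, a protein of secondary granules in some neutrophils, followed at 0.907 and the integrin gene Itgb2l at 0.898. Samd9l, Megf9, Galnt7, Il18r1 and Actn1 completed the 10 most alike, at 0.889 to 0.896. Without HoxA9wt/Meis1 replicate 3 these 10 correlations were between 0.647 and 0.984. Cxcr2, which marks late neutrophil stages, measured 10.51, 10.57 and 8.70 in HoxA9AA/Meis1 and 8.73, 9.79 and 6.09 in HoxA9wt/Meis1 mice. It was lowest in the same mouse as S100a8 and S100a9, under the olfactory mark there. Ly6g, the surface antigen used to sort mouse neutrophils, measured 8.98, 9.85 and 7.52 in HoxA9AA/Meis1 and 8.37, 7.63 and 5.64 in HoxA9wt/Meis1 mice. It was again lowest and under the mark in HoxA9wt/Meis1 replicate 3. Il1b, Cd14 and Ccl6 of the mature neutrophil list were instead highest in that mouse, at 10.37, 9.29 and 10.90. Of the 17 genes of that list, 8 correlated more closely with the mean of the 6 genes and 9 with that of Chil3 and Ifitm6.

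At the opposite end stood Jun, at r = −0.969, Rgs1 at −0.958, Grk3 at −0.919, Snora52 at −0.881 and Plk3 at −0.846. The AP-1 gene Jun, which responds within minutes to stimulation or handling, measured 7.69, 7.73 and 8.51 in HoxA9AA/Meis1 mice and 7.76, 7.15 and 9.63 in HoxA9wt/Meis1 mice. HoxA9wt/Meis1 replicate 3, low for the 6 genes, was thus the highest for Jun, and the part of handling in these values was not tested.

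Other genes of late granules and membranes, a list that also holds surface receptors, were mixed. Of 30 measured, 11 had a higher and 18 a lower mean in HoxA9AA/Meis1 marrow, and 0 passed (limma). Their groups did not overlap for 3 with a higher mean and 4 with a lower one, where all genes gave 6.6% and 4.8%. Mmp8, the neutrophil collagenase, measured 8.07, 11.44 and 6.07 in HoxA9AA/Meis1 and 11.70, 12.49 and 12.00 in HoxA9wt/Meis1 mice. Over the 6 arrays it correlated at 0.980 with the mean of Chil3 and Ifitm6 and at −0.06 with that of the 6 genes. Cybb, the oxidase chain gp91phox, and Clec5a, a lectin receptor, likewise correlated at 0.918 and 0.911 with the Chil3 and Ifitm6 mean. Pglyrp1, a peptidoglycan-binding granule protein, correlated at 0.792 with the 6 genes and measured 11.47, 10.62 and 10.87 in HoxA9AA/Meis1 against 9.98, 10.55 and 8.93 in HoxA9wt/Meis1 mice. Others followed neither mean. Trem1, a receptor that amplifies inflammation, correlated at −0.66 with the 6 genes and at −0.01 with Chil3 and Ifitm6, and the integrin gene Itgam at −0.08 and 0.25.

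Monocyte markers were low in the mice where Ifitm6 was low. All 15 measured had a lower mean in HoxA9AA/Meis1 marrow, 5 of them with an unadjusted p under 0.05, against 2.59% of all genes, and 0 passed (limma). The 15 correlated with the Chil3 and Ifitm6 mean at r = 0.16 to 0.98 and with that of the 6 genes at −0.29 to 0.02. Averaged over the list, HoxA9AA/Meis1 replicates 1, 2 and 3 stood at −1.63, −0.02 and −1.37 from the HoxA9wt/Meis1 mean, and the HoxA9wt/Meis1 mice at −0.18 to 0.17. The log2 of the summed level ranged from 13.58 to 15.02 in HoxA9AA/Meis1 and from 15.02 to 15.18 in HoxA9wt/Meis1 mice. Vcan, a matrix proteoglycan of monocytes, measured 8.09, 11.65 and 8.47 in HoxA9AA/Meis1 and 11.77, 12.10 and 11.84 in HoxA9wt/Meis1 mice. Lyz1, Ctss and Clec4a3, a lysozyme, a cathepsin and a lectin receptor, differed by −0.83, −1.01 and −2.66. In HoxA9AA/Meis1 replicate 1, Vcan and Ifitm6 were both low while Chil3, at 12.04, was not. Fcgr1 lay near the olfactory mark in all mice, at 6.32 to 6.52 in HoxA9AA/Meis1 and 6.42 to 6.86 in HoxA9wt/Meis1, and Ly6c2, which marks monocytes in the mouse, was not measured by a probe set with 1 symbol. The part of monocyte content in the values of Chil3 and Ifitm6 was not tested.

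Primary granule genes, made at an earlier stage, were highest in HoxA9AA/Meis1 replicate 1. Averaged over 14 genes the list stood at 0.90, 0.01 and 0.21 in HoxA9AA/Meis1 replicates 1, 2 and 3, and at 0.07, 0.25 and −0.32 in the HoxA9wt/Meis1 replicates. The 10 late genes stood at 0.75, 0.98 and −0.66 in the same HoxA9AA/Meis1 mice and at 0.46, 1.07 and −1.53 in the HoxA9wt/Meis1 mice. In HoxA9wt/Meis1 replicate 3 the 10 late genes were therefore further from the group mean than the primary granule genes. Of the 14, 11 had a higher mean in HoxA9AA/Meis1 marrow, where 52.7% of all genes did, and 0 passed. The serine protease genes Prss57 and Prtn3 differed by 1.38 and 0.52, Nkg7 by 2.21 and the activating protease gene Ctsc by −0.75.

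**Figure D4:**
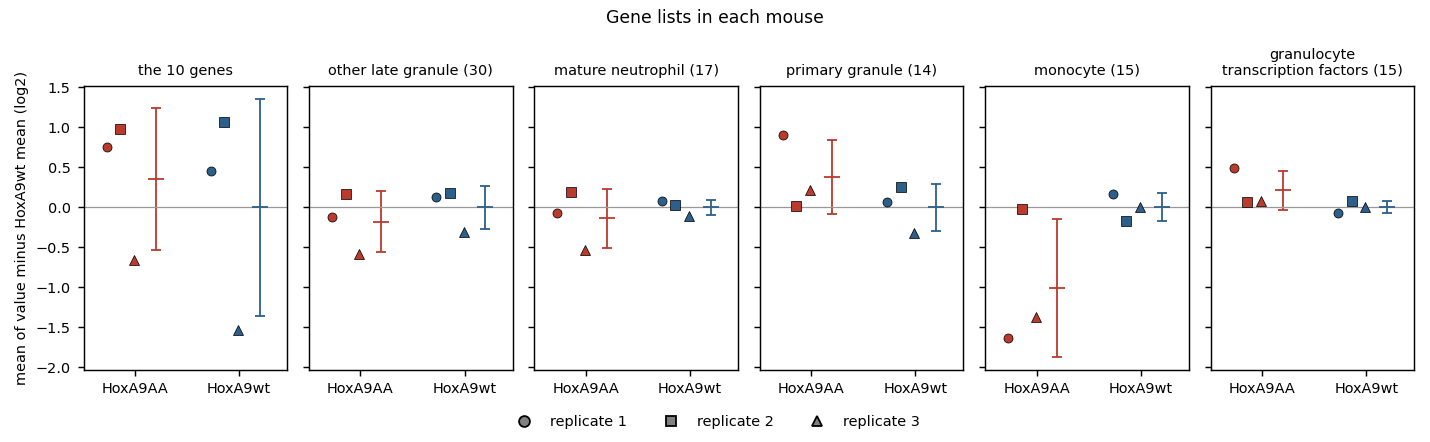
Mean over each gene list of the log2 value minus the HoxA9wt/Meis1 mean (vertical axis) in each mouse, with the number of measured genes in brackets; each symbol is 1 mouse and crossbars give the mean ± SD of a group (n = 3). The 10 late genes are lowest in HoxA9wt/Meis1 replicate 3, at −1.53, whereas the monocyte list is low in HoxA9AA/Meis1 replicates 1 and 3, at −1.63 and −1.37.

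Transcription factors of granulocyte development and of related blood lineages were set beside these genes. Of 15 measured, 11 had a higher mean in HoxA9AA/Meis1 marrow, where 52.7% of all genes did, and 0 passed (limma). Cebpe measured 8.92, 7.83 and 8.12 in HoxA9AA/Meis1 mice and 7.54, 8.18 and 7.60 in HoxA9wt/Meis1 mice. Its lowest mice were HoxA9wt/Meis1 replicates 1 and 3, which were nearly level at 7.54 and 7.60. The difference was 0.52 ± 0.31 (limma, adjusted p = 0.794). Gfi1, a repressor needed for neutrophil maturation, measured 8.94, 7.69 and 7.93 in HoxA9AA/Meis1 and 7.44, 7.91 and 7.46 in HoxA9wt/Meis1 mice. Both were highest in HoxA9AA/Meis1 replicate 1. Cebpa, Cebpb and Cebpd differed by 0.30, −0.08 and 0.39, and Spi1, which encodes PU.1, by 0.02. The 4 with the smallest p were Ets1 (difference 1.04), Runx1 (0.73), Cebpg (−0.60) and Klf4 (−0.43).

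Relatives by protein family were also described. Of 16 lipocalin, transferrin and cystatin relatives 6 had a higher and 10 a lower mean, and of 7 chitinase relatives 1 and 6, with 0 passed in either list (limma). The transferrin gene Trf, a relative of lactoferrin, measured 10.45, 8.80 and 9.69 in HoxA9AA/Meis1 and 8.58, 8.33 and 8.98 in HoxA9wt/Meis1 mice, which overlapped, and unlike Ltf it was not lowest in HoxA9wt/Meis1 replicate 3.

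Genes of receptors that late granule and S100 proteins act on were mixed. Of 11 measured, 4 had a higher and 7 a lower mean, and 0 passed. Tlr4, through which S100a8 and S100a9 signal, measured 7.43, 9.34 and 7.68 in HoxA9AA/Meis1 against 9.26, 9.51 and 8.94 in HoxA9wt/Meis1 mice. Lrp1, a receptor that takes up lactoferrin, measured 7.58, 9.07 and 7.90 in HoxA9AA/Meis1 and 9.16, 9.08 and 9.22 in HoxA9wt/Meis1 mice. In both, HoxA9AA/Meis1 replicates 1 and 3 were low, as for Ifitm6. Bsg, which encodes basigin, a receptor of S100a9, measured 10.12, 9.72 and 10.20 in HoxA9AA/Meis1 and 9.70, 9.62 and 9.51 in HoxA9wt/Meis1 mice. Groups did not overlap for 2 of the 11 with a higher mean (Bsg and Pecam1) and 1 with a lower one (Lrp1, narrowly). All genes gave 6.6% and 4.8%. P2rx7, a receptor that cathelicidin peptides act on, differed by −0.91.

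Mature neutrophil surface and secretory genes numbered 17 measured, 7 with a higher and 10 with a lower mean, and 0 passed (limma). Those with the smallest p were the glucose transporter gene Slc2a3 (difference 0.65), the annexin gene Anxa1 (−0.62), the receptor gene for granulocyte colony-stimulating factor Csf3r (0.74) and the Fc receptor gene Fcgr4 (−1.21). Csf3r measured 9.53, 8.64 and 8.72 in HoxA9AA/Meis1 and 8.15, 8.40 and 8.11 in HoxA9wt/Meis1 mice. Groups did not overlap for 2 of the 17 with a higher mean (Slc2a3 and Csf3r) and 2 with a lower one (Anxa1 and Fcgr4). All genes gave 6.6% and 4.8%.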

How the data were processed

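Bone marrow RNA of 6 mice was measured on 6 arrays, 1 per mouse. The deposited values are log2 expression values, made by the authors with the R package oligo and RMA, per the submitters' processing notes, which corrects background, normalizes arrays by quantiles and summarises probe sets. Software versions and genome build: not given in the sources used here. Such scaling sets the probe values of all arrays to one distribution before they are summarised, so that only relative levels are kept. The medians of the deposited probe set values still ranged from 6.73 to 6.85 over the arrays. An array gives no count, and the number of mice limits the precision.

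Of 35556 probe sets, 21789 had 1 symbol, 1621 had several and 12146 were not listed. The brightest probe set per gene, by its mean over the 6 arrays, was kept. HoxA9AA/Meis1 was compared with HoxA9wt/Meis1 with limma 3.58.1 in R 4.3.3 (two-sided, no block, Benjamini-Hochberg over 19938 genes, threshold 0.05). The fit was tested on simulated data in which both groups had the spread of HoxA9wt/Meis1. Such a test checks the calculation and does not show what can be detected in these mice. The labels call the mice biological replicates. The members, gene lists and tests were chosen with earlier results of these data known. By the rule for names, all 10 members, up to 4 genes of a list with the smallest p, relatives, granulocyte factors and the genes most and least like the members' mean were named. Ly6g, Cd79a, Cd79b, Tlr4, Trem1, Itgam, Fcgr1, Il1b, Cd14, Ccl6 and the pairing of single genes with patterns were added after their values were seen. So were the B cell, erythroid, and stem and progenitor genes named as lying under the olfactory level. Alternatives were the replicate block, leaving out each array, a filter on dim genes, averaged probe sets, median centring, repeated quantile normalization, trend with robust moderation, and array weights. Promoters came from RefSeq (GRCm38.p6), where all 10 genes were found. Figures used matplotlib 3.10.9.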

Additional observations from a re-analysis of the deposited data

How the results depend on the processing

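Of 130 values of the 10 genes under 13 other settings, 1 passed (Ifitm6 without HoxA9AA/Meis1 replicate 2, −2.17, adjusted p = 0.0470) and 13 changed sign. With all 6 arrays, these were Ltf with array weights (0.37) and Cd177 after median centring (0.0217) or repeated quantile normalization (0.0322). The replicate block, the filter on dim genes, averaged probe sets and trend with robust moderation cannot alter a difference of these genes. Their values therefore could not change sign and say nothing about stability. Leaving out 1 array at a time, the difference ranged from −1.43 to 0.60 for Ltf, −0.02 to 2.03 for Ngp, −0.0433 to 0.73 for Lcn2, −0.04 to 1.92 for S100a8, −0.23 to 2.02 for S100a9 and −0.31 to 0.33 for Cd177. It kept its sign for Camp (0.07 to 1.78), Retnlg (0.54 to 2.66), Chil3 (−1.90 to −0.37) and Ifitm6 (−2.17 to −0.88). The number of the 10 with a higher mean ranged from 3 to 8, and their median difference from −0.12 to 1.12, both lowest without HoxA9wt/Meis1 replicate 3. The genes called over the whole array ranged from 0 to 48, with 48 without HoxA9AA/Meis1 replicate 2 and 1 without HoxA9wt/Meis1 replicate 3. Each of the 7 settings with all arrays called 0. At an unadjusted p under 0.05, 828 genes were higher and 516 lower, against 1027 and 392 after median centring. Median centring shifts the difference of every gene by the same amount, and the median over all genes moved from 0.01 to 0.035. The cause of the other changes was not tested. With the replicate number as a block, 0 genes passed and 1117 had an unadjusted p under 0.05 (limma). The median difference of the 10 stayed at 0.57, which a block cannot change when each number occurs once in each group. No pairing by number was seen: deviations of same-numbered mice from their group means correlated at −0.21, −0.10 and −0.01 over 19938 genes. With 3 mice per group such correlations cannot decide whether the numbers pair mice. Values of Ltf and Retnlg in HoxA9wt/Meis1 replicate 3 lay within the range of the olfactory receptor genes, which limits how low they can be read.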
